A study of Mus musculus with 4 samples.

Results

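Differential H3K9ac regions were examined at the 10 genes of the Myc and Max network in HT22 cells, an immortalised mouse hippocampal line. H3K9ac is acetylation of lysine 9 on histone H3, a mark of active promoters and enhancers. The members are the activators Myc, Mycn and Mycl, their shared partner Max, and the antagonists Mxd1, Mxd3, Mxd4, Mxi1, Mnt and Mga. They were named as a list, and a region was counted for a member when at least 1 bp of it fell in the span of the gene in GENCODE M21 (build mm10) extended by 10 kb on both sides. By this rule 36 of 45855 regions belonged to the network, and 8 of its 10 genes had at least 1 region. The whole annotation holds 21938 protein-coding genes.

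Every culture was grown in high-glucose medium with serum and received choline chloride for 48 h, at 5 µM as the control or at 70 µM as the supplemented level. Among the 4 libraries, 2 were input controls and 2 came from the H3K9ac immunoprecipitation, and the labels do not give the choline level of each. The deposited list holds only regions called different between the levels, 360 in condition 1 and 45495 in condition 2, here read as 5 µM and 70 µM from the order in the region names. Every direction below rests on that reading. Each region also has a score, the authors' own value from an unnamed column of their deposited table. The bdgdiff function of MACS2 normally writes a log10 likelihood ratio of the conditions there, which the file itself does not state. Read so, the score ranks how firmly a region was called and is not a fold change. Each level had at most 1 ChIP library, read depth is unknown, and no difference between levels could be tested, so all values are descriptions of 1 list. A gene with no region may carry H3K9ac alike at both levels. Of the fixed cell type markers, a start-site region was found at 4 of 8 genes of mature neurons (Rbfox3, Syn1, Eno2 and Dlg4). Map2, Tubb3, Snap25 and Camk2a of the same list had none. Such a region was found at 3 of 4 fibroblast genes (Col1a1, Col1a2 and Thy1) and 2 of 4 astrocyte genes (Slc1a3 and Aldh1l1). It was found at 1 of 4 genes of microglia (Aif1) and 0 of 4 of oligodendrocytes. Among all protein-coding genes, 39.5% had one. A list of differences cannot show that a marker is silent, so the hippocampal label was not tested by it.

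Myc family proteins pair with Max through a basic helix-loop-helix leucine zipper and bind E-box DNA, where they recruit acetyltransferase complexes and raise transcription of growth genes. Mxd proteins, Mxi1 and Mnt pair with the same Max and the same DNA but bring in Sin3 and histone deacetylases. Mga also pairs with Max and sits in a variant Polycomb complex. Myc is high in proliferating cells, whereas Mxd genes are typically turned on when cells leave the cycle.

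The sequences below show what the regions look like at 4 members and are referred to beside the values. All are plus-strand sequence of build mm10, written 5′ to 3′, and none overlaps an annotated untranslated sequence. The region of Max at chr12:76961096-76961343 holds a whole alternative coding exon, here in capitals (the gene lies on the minus strand).
Max: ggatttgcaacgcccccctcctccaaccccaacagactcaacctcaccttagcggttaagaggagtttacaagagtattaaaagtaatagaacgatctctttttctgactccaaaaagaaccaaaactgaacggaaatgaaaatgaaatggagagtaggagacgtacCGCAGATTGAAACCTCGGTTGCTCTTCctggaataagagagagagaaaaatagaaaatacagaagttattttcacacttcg
A start-site region and a distant region of Mxd1 contrast in CpG sites and in repeated words. The first, at chr6:86668824-86668994, has its CpG sites in capitals. The second, at chr6:86637567-86637697, lies beyond the 3′ end of the gene and has the repeated word GGCTGTCTGATG in capitals.
Mxd1 start-site region: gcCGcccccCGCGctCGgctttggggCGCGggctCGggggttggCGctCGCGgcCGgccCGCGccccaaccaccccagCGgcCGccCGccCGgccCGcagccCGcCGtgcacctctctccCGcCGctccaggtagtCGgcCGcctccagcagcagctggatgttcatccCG
Mxd1 distant region: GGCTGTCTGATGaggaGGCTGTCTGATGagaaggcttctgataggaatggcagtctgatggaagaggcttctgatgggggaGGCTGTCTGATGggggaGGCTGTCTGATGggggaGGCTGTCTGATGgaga
The only 5 µM region of the network lies in an intron of Mxd4 at chr5:34186615-34186749 and holds no CpG site.
Mxd4: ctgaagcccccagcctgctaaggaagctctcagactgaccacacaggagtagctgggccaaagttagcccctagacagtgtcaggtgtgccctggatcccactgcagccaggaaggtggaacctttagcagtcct
An intronic start-site region of Mxi1, at chr19:53313654-53313865, holds the hexamer CACGCG, read on the minus strand and shown in capitals as CGCGTG. It is a variant of the E-box CACGTG that Myc and Max also bind.
Mxi1: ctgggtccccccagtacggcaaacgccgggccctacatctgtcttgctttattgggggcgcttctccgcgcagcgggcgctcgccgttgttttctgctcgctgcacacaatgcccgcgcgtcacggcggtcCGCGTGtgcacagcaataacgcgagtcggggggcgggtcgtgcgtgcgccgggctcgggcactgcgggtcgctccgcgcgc

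The network had 8 of 10 genes with a region, beside 65.4% of all protein-coding genes, and 6 of 10 with a region within 1000 bp of an annotated start of their own, beside 39.5%. At 4 members there were 5 or more regions, as at 18.7% of all genes. Mxi1 had 8 regions, Mxd1 and Mnt 6 each, Myc 5, Mxd3 4, Mxd4 3, Max and Mga 2 each, and Mycn and Mycl none. The median over the 10 members was 3.5 regions, and over all protein-coding genes it was 1. All but 1 of the 36 regions were 70 µM regions, as were nearly all in the list. Long genes have long windows, and per 10 kb of window the order was Myc (2.00 regions), Mnt (1.72), Mxd3 (1.62), Mxd1 (1.42), Mxi1 (0.94), Mxd4 (0.89), Max (0.45) and Mga (0.22), beside a median of 0.27 over all genes. The chromosomes of the members differ too. Chromosomes 11 (Mnt) and 15 (Myc) held 37.5 and 37.1 regions per Mb, chromosome 12 (Mycn and Max) held 10.0 and the genome 16.8, and the part of this in the members' counts was not tested.

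**Figure D1:**
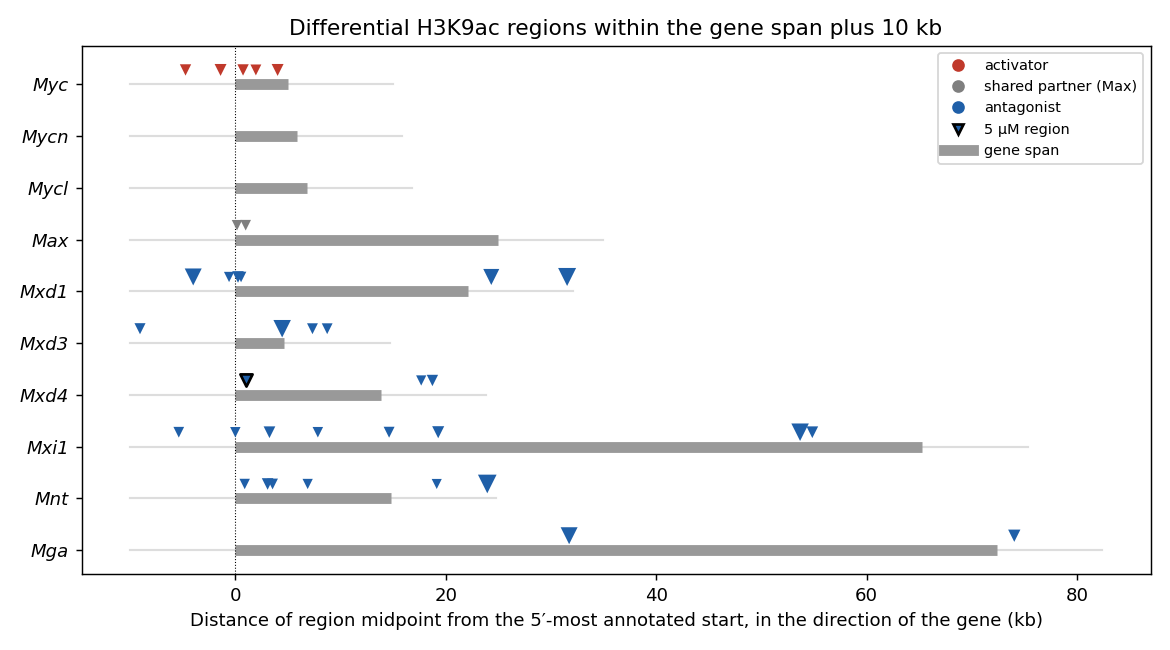
Position of each of the 36 regions (triangles, larger for a higher score) by distance in kb from the 5′-most annotated start of its gene, with the gene span as a grey bar and the 10 kb flanks as a thin line. Mycn and Mycl have no triangle, the 5 regions of Myc lie close around its start, and the single 5 µM region (black outline) is at Mxd4.

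Among the activators, only Myc carried regions. Myc, the broadly expressed proto-oncogene of proliferating cells (ENSMUSG00000022346.15, chromosome 15, 61985391 to 61990374, plus strand), had 5, all at 70 µM. A region of 1101 bp, from 61985573 to 61986673, began 182 bp after the 5′-most start and covered part of exon 1, including its first 10 codons in transcript Myc-201, and part of the intron behind it. Its score was 5.43, and it was the 5th widest region of the list, in which 6 regions exceed 1000 bp. The next region, 368 bp wide with a score of 4.67, ran from 61987157 into exon 2 up to codon 16. A region of 306 bp with a score of 6.46 overlapped the end of intron 2 and the start of exon 3, over codons 268 to 339 of 454. The other 2 lay before the gene, with midpoints 4.74 kb (242 bp wide, score 5.37) and 1.41 kb (149 bp wide, score 6.44) from the 5′-most start. All 5 scores were below the list median of 6.64, while 4 of the 5 widths were above the upper quartile of the list (200 bp).

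Regions covered 1775 bp of the 4.98 kb span of Myc, which is 35.6% of it. The share was 9.5% for Mxd3, 6.0% for Mnt and 2.2% or less for the other members, and that of Myc was above the share in 99.8% of all protein-coding genes. The share depends on gene length, as a short gene is covered by few regions. By number of regions, Myc was above 81.3% of all protein-coding genes. The 368 bp region of Myc holds a CA repeat, and 9.5% of its 32-base words occur elsewhere in the genome, whereas the other 4 regions of Myc hold no such word. Regions of Myc thus lay on both sides of its 5′-most start and touched all 3 exons, with scores below the list median.

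**Figure D2:**
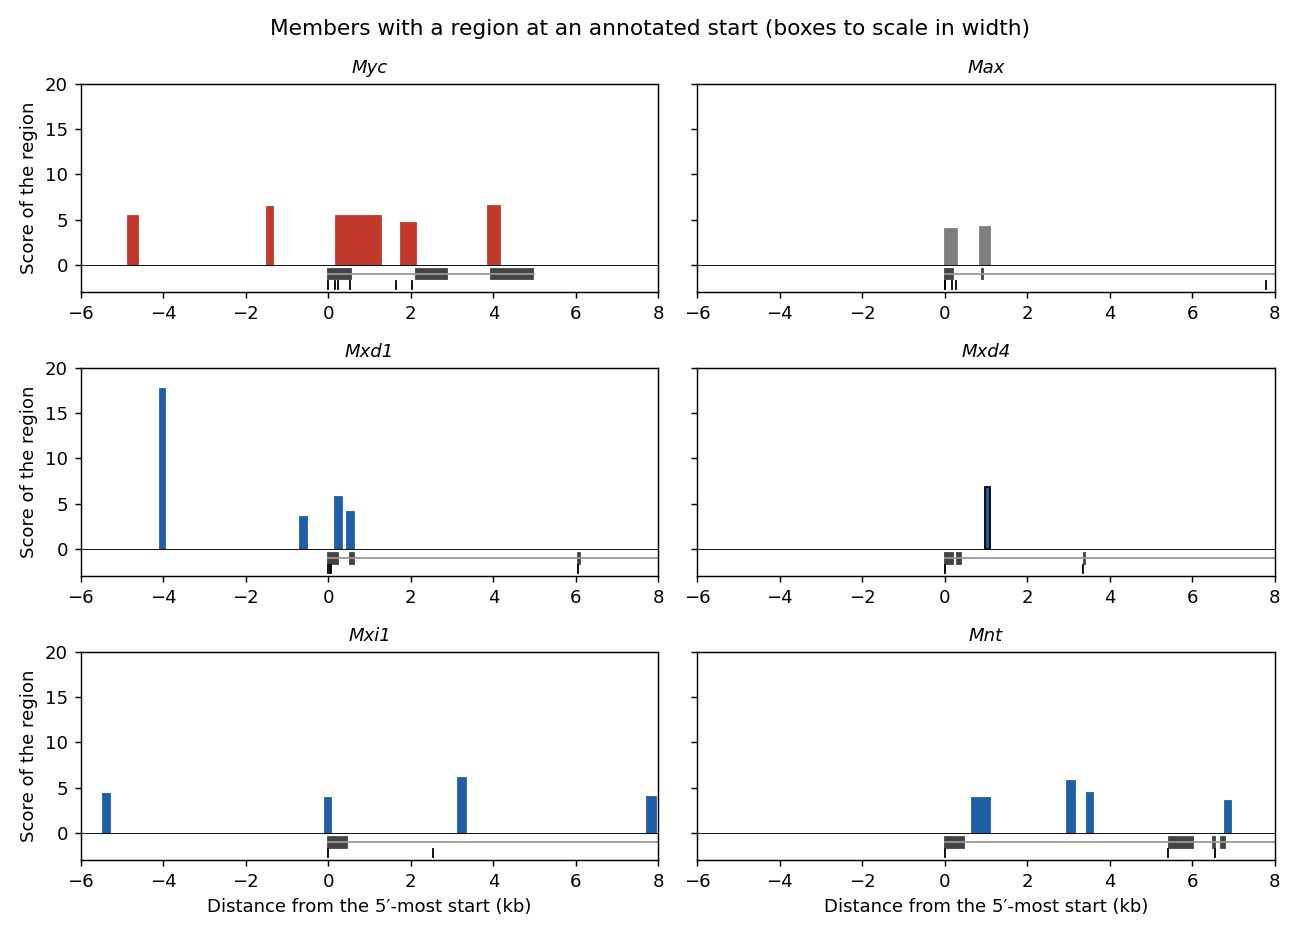
Regions as boxes drawn to scale in width, with height giving the score, against distance in kb from the 5′-most start, for the 6 members with a region at a start of their own. Exons of the transcript with the longest coding sequence are dark blocks and short ticks are annotated starts. The 1101 bp box of Myc spans part of the first exon and part of the first intron. Only the sequence around the 5′-most start is drawn. Regions farther off are not shown, whether high-scoring, as at Mnt (22.20), Mxd1 (20.39) and Mxi1 (19.01), or low-scoring, as at Mxd4 (5.38 and 3.54). The start-site region of Mxi1 with a score of 6.67, at an internal start, also lies outside the drawing.

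Mycn, the family member of embryonic and neural progenitors (chromosome 12, 12936093 to 12941914), had no region, and the nearest in the list lay 259.0 kb away. Mycl (chromosome 4, 122995652 to 123002485), the third family member, had none within 10 kb either, but the nearest lay only 14.5 kb away. Within 20 kb of Mycl there were 3 regions of 70 µM, with scores of 5.94, 3.91 and 6.27 and widths of 255, 197 and 493 bp. The first 2 of these were at a start of the neighbouring gene Trit1, which encodes a tRNA-modifying enzyme. Only 1 of the 3 activators thus had a region within 10 kb.

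Max, the obligate partner of activators and antagonists alike (chromosome 12, 76937269 to 76962201, minus strand), had 2 regions at 70 µM, both at its start. The region from 76961890 to 76962199 was 310 bp wide with a score of 3.96, ended 2 bp short of the 5′-most start and covered exon 1 with codons 1 to 12 of transcript Max-202. The region from 76961096 to 76961343 was 248 bp wide with a score of 4.18. It lay over exon 2 of that transcript, the exon printed above, which has 27 bases or 9 codons and is present in 2 of the 4 coding transcripts. That exon separates the long from the short Max protein. Both widths were above the upper quartile of the list, and both scores were low in its range of 3.08 to 44.48.

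All 6 antagonists carried regions, 29 in all, of which 9 lay at a start of the gene itself. Mxd1, a Max partner induced on differentiation (chromosome 6, 86647042 to 86669161, minus strand), had 3 regions at its start, at 70 µM. They were 174, 171 and 187 bp wide and had scores of 4.05, 5.76 and 3.56. The first 2 overlapped exons 2 and 1, and the last lay 0.60 kb before the 5′-most start. The other 3 regions of Mxd1 had scores of 20.39, 15.26 and 17.64 and lay 31.53 and 24.32 kb behind and 4.0 kb before that start, with widths of 131, 146 and 123 bp. The gene thus had low-scoring regions at its start and high-scoring, narrower ones at a distance. The start-site region printed above is 80.1% G and C with 25 CpG sites. The distant region printed above is 56.5% G and C with no CpG site. It repeats its 12-base word 5 times, and 22.0% of its 32-base words occur elsewhere in the genome. The other start-site regions of Mxd1 are 53.4% and 61.0% G and C. The other distant ones are 53.4% and 43.9%, so G and C overlap between the 2 kinds.

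Mxi1, an antagonist with several alternative first exons (chromosome 19, 53310518 to 53375810, plus strand), had 8 regions, the most of any member, all at 70 µM. One of 162 bp with a score of 3.83 covered the 5′-most start, the only 5′-most start of a member that a region covered. Further starts inside the gene carried the regions at 53313654 (212 bp, score 6.03) and 53329692 (207 bp, score 6.67). The other 5 lay between starts or before the gene, at 5.38 kb before and 7.84, 14.61, 53.67 and 54.83 kb after the 5′-most start, with widths of 137 to 208 bp. Of these, the region at 53364117 (141 bp) had a score of 19.01, and the remaining 4 had scores from 4.0 to 6.0. The score of 19.01 is the commonest in the list, shared by 2552 regions, and 90.9% of the 32-base words of that region occur elsewhere in the genome.

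Mnt, the most widely expressed antagonist (chromosome 11, 74830920 to 74845725, plus strand), had 6 regions at 70 µM. A region of 426 bp with a score of 3.84 lay in intron 1, 0.89 kb from the 5′-most start. In the same intron followed regions of 184 bp (score 5.79) and 146 bp (4.43), and intron 4 held a region of 131 bp (3.58) beside an internal start. The last 2 lay behind the gene, inside the neighbouring gene Sgsm2. They were 128 bp wide with a score of 3.33 and 183 bp wide with a score of 22.20, the highest score in the network, and the sequence of the latter is entirely repeat-masked.

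At Mxd3 and Mxd4 most regions overlapped neighbouring genes or lay at their starts, and which gene they act on was not tested. Mxd3, expressed during S phase in proliferating cells (chromosome 13, 55325168 to 55329823, minus strand), had 4 regions at 70 µM and none at its own start. The regions at 55321010 (174 bp, score 4.49) and 55322407 (176 bp, score 4.58) were at starts of Prelid1, which encodes a mitochondrial lipid transfer protein, and Rab24. The region at 55325143 (465 bp, score 18.94), the widest of any antagonist, overlapped the last exon of Mxd3 as well as Prelid1, and 22.1% of its 32-base words occur elsewhere in the genome. The last, at 55338785 (200 bp, score 4.92), is 87.5% repeat-masked.

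Mxd4 (chromosome 5, 34173883 to 34187720, minus strand) had 3 regions. Those at 34168898 (190 bp, score 5.38) and 34169975 (166 bp, score 3.54) were at starts of Haus3, a subunit of the spindle complex augmin, and Poln, a DNA polymerase. The region at 34186615 (135 bp, score 6.86), in intron 2 and 1.04 kb behind the 5′-most start, was assigned to 5 µM. It was the only 5 µM region of the network, so 1 of 10 members had one, beside 2.06% of all protein-coding genes. Its edge lay 961 bp from the nearest start, so a window of 500 bp no longer counts it as a start-site region. Mxd4 was thus the only member with a start-site region assigned to the control level, and no 70 µM region lay at its own start.

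Mga, the largest gene of the network (chromosome 2, 119897228 to 119969581, plus strand), had 2 regions at 70 µM and none near a start. One of 161 bp with a score of 17.64 lay in intron 9 of transcript Mga-204, 31.72 kb behind the 5′-most start, and one of 230 bp with a score of 7.07 lay behind the gene. Of the 32-base words in the first, 10.8% occur elsewhere in the genome.

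By width, the regions of Myc and Max stood at the upper end and those of the antagonists near the middle of the list. The widths ran from 149 to 1101 bp with a median of 306 bp at Myc, were 248 and 310 bp at Max, and ran from 123 to 465 bp with a median of 171 bp at the antagonists. The median was 170 bp in the whole list and 184.5 bp among all regions at a coding start. Regions of at least 300 bp numbered 3 of 5 at Myc, 1 of 2 at Max and 2 of 29 at the antagonists (Mnt and Mxd3), beside 6.50% of the list. In the list such widths were commoner at coding starts (12.71% of regions) than elsewhere (3.96%). Among members they were held by 4 of 13 regions at an own start and 2 of the other 23. The ranges of width overlapped between the roles. Regions of 1 gene share that gene, and Myc is the sole activator with regions, so the contrast of activators with antagonists is that of a single gene and was not tested. At their own starts, the 9 regions of the antagonists had a median width of 174 bp.

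**Figure D3:**
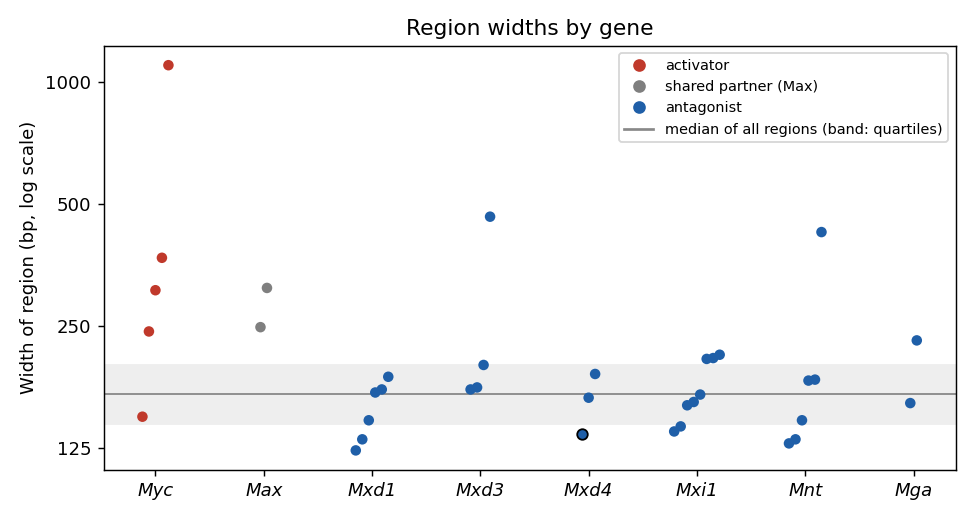
Width in bp (log axis) of each region, by gene, with the median (line) and quartiles (band) of all 45855 regions. Points of Myc reach 1101 bp and both points of Max lie above the band, while most points of the antagonists lie within or near it.

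By score, regions at starts were low, and regions away from starts were mostly low with a minority of high values. The 13 regions at a member's own start had scores from 3.56 to 6.86 with a median of 4.18. The other 23 ran from 3.33 to 22.20 with a median of 5.79, and 16 of them had 7.07 or less. A score of 15 or over, a limit set after the values were seen, was reached by 7 regions, all of antagonists (Mxd1 3, and Mxd3, Mxi1, Mnt and Mga 1 each), and all at least 3.98 kb from the nearest start of the gene. Such a score was held by 24.1% of the antagonist regions and by 11446 of the 45855 regions in the list, which are similar shares. Myc and Max had only 5 and 2 regions, 2 of each at a start, so their lack of such scores sets no contrast with the antagonists. No score fell between 7.07 and 15.26, although 23.1% of the list did. In the whole list the medians were 5.00 at coding starts and 8.73 elsewhere, and 8.7% and 31.6% of regions reached 15, so the direction is that of the list. Of the 7 high-scoring regions, 5 held at least 1 32-base word that occurs elsewhere in the genome, beside 3 of the 29 others. No share of such regions over the whole list is given here. Repeat-masked bases made up more than 50% of 2 of the 7 and 1 of the 29. In the whole list this held for 20.4% of regions at 15 or over and 11.7% of those under 15. The part of repeated sequence in these scores was not tested.

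**Figure D4:**
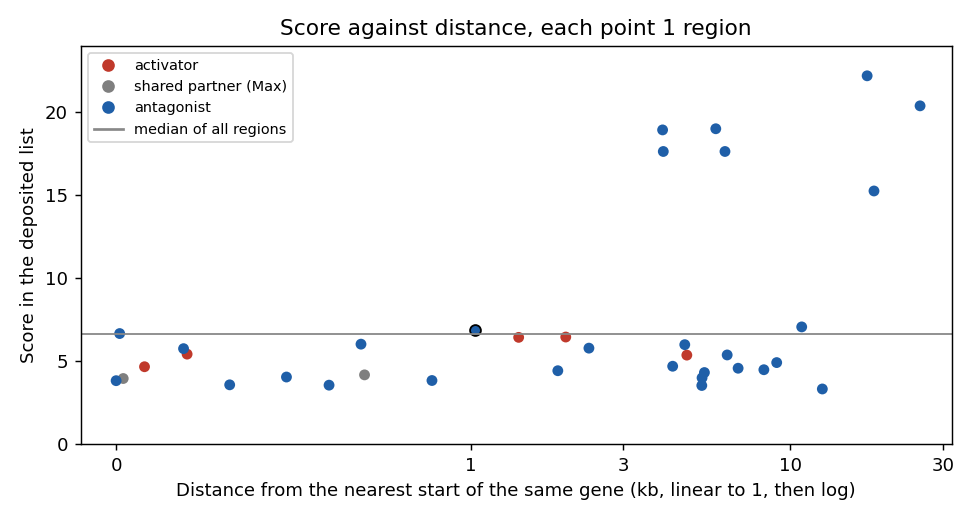
Score of each region against the distance of its midpoint from the nearest annotated start of its own gene (kb, linear to 1 and then log), with the median of all regions as a line. The 7 points with a score of 15 or over are antagonist regions at 3.98 kb or more, and points within 1 kb lie between 3.56 and 6.67. Antagonists hold 29 of the 36 points.

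By place, 21 of the 36 regions overlapped the span of their own gene, 6 lay before it and 9 behind it. Of the 21, 11 lay in introns and 10 touched an exon. Of the 15 outside, 4 in the flanks of Mxd3 and Mxd4 were at starts of other coding genes. G and C made up a median of 62.0% of the bases in the 13 start-site regions and 46.6% in the other 23, with medians of 17 and 2 CpG sites. In the whole list the G and C medians were 54.7% at coding starts and 48.9% elsewhere, with medians of 6 and 2 CpG sites. CpG sites were counted per region and not per base. The median widths were 207 bp in the 13 start-site regions and 169 bp in the other 23.

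Since network proteins bind E-boxes, the regions were searched for CACGTG, which reads the same on both strands, and for the variant CACGCG on both strands. CACGTG lay in 0 of 36 regions, beside 2.71% of all regions, so no site of one could overlap a site of the other there. Extended by 100 bp on either side, 3 regions held it, beside 5.8% of all. These 3 sites are shown with 12 bases on either side and the hexamer in capitals, because each lies within 47 bp of a region of Max, Mxd1 or Mnt.
Max, chr12:76962234-76962263: tcggccccctaaCACGTGaccgggctcacc
Mxd1, chr6:86673215-86673244: ttgggtgctttaCACGTGgagcctgcagca
Mnt, chr11:74833872-74833901: gaccagcttggtCACGTGatgaacccgggg
CACGCG lay in 4 of 36 regions, beside 2.57% of all, and all 4 were start-site regions, 2 of Mxi1 and 2 of Mnt. Among all regions at coding starts, 6.62% held it. The hexamer itself contains CpG sites, and the regions with it were rich in them. Those of Mxi1 had 32 and 36 CpG sites and those of Mnt 29 and 9, beside a median of 6 at all coding starts. The part of base composition in these matches was not tested. The RefSeq promoter windows (GRCm38.p6, 250 bases before to 50 after a start) matched 9 members with 11 windows, Myc having none. CACGTG was in 3 of them, those of Max, Mnt and Mxd4, beside 7.2% of all 32851 windows, and CACGCG in 2, those of Mycl and Mga, beside 9.3%. The CACGTG in the Max window is the site of Max printed above, whereas that in the Mnt window is a different site from the printed one. A match is a run of letters and not a bound site.

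Genes around the network were described by the share with a region within 1000 bp of a start, beside the 39.5% of all protein-coding genes. Among 9 further helix-loop-helix zipper genes, which include Mlx and its partners, 6 had one. The highest scores there were at the lysosomal regulator Tfeb (14.45), at Tfe3 (9.28), at Mlx, which pairs with some Mxd proteins and Mnt as an alternative to Max (5.30), and at Mlxip, which encodes the Mlx partner MondoA (4.91). Mitf and the carbohydrate-responsive Mlxipl had none. Among 26 cofactors and regulators of Myc stability, 19 had one, led by Trrap, the scaffold through which Myc recruits acetyltransferases (18.89), the corepressor gene Ncor1 (17.80), Skp2 of the ubiquitin ligase that acts on Myc (17.38) and the acetyltransferase gene Kat5 (17.02). Bin1 and E2f6 were without. Among 30 textbook targets of Myc, 25 had one, with the highest scores at the transferrin receptor gene Tfrc (20.63), the pyrimidine synthesis gene Cad (19.47), Nme1 (19.36) and the nucleostemin gene Gnl3 (19.18), and none at Bop1 and Fbl. All 12 of these named regions were 70 µM regions. No test set these lists against other genes.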

How the data were processed

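H3K9ac ChIP and input DNA from HT22 cells were sequenced by the submitters. The tools were Bowtie 1.0.0, CASAVA 1.8 and MACS2 on build mm10, per the submitters' processing notes, and per the labels' design text peaks were called against input and compared between levels with bdgdiff. The single list deposited by the authors gives each differential region a position and a score, an unnamed column that was used only to describe and rank regions. The sources used here do not give how libraries were scaled. Total reads are unknown, so no precision follows from depth.

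Regions were set against GENCODE M21 and the sequence of GRCm38.p6, the same build, with Python 3.11.15 and numpy 2.4.6, in coordinates counted from 1. Overlap counting was tested on simulated regions. Repeat-masked bases are the lower-case bases of the sequence. The members, lists and rules were chosen with earlier results of these data known. Named were all members with every region, any coding gene whose start or span such a region overlaps, and in each of the 3 other lists up to 4 genes with the highest-scoring start-site region and up to 2 without one, in alphabetical order. Trit1 was named after its values were seen. Alternatives were flanks of 0, 5 and 20 kb, start windows of 500 and 2500 bp, 5′-most starts, midpoints, the upper part of the scores, no commonest scores and 70 µM regions alone.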

Additional observations from a re-analysis of the deposited data

How the results depend on the processing

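No paired analysis was possible because the list has no values per library. Of 127 alternative values, 101 stayed within 1.5 times of the reported count, or within 10% of a reported median. These values are not independent, since the same regions are counted by member, by role and in total. Some could hardly move, such as the count for Mycn, which was 0 in every setting. Without flanks, 21 regions were left, 3 at activators and 16 at antagonists, and with 20 kb the activators had 8, the added 3 being those near Mycl. Members with a region numbered 8 of 10 with no flank, beside 52.1% of all protein-coding genes, and 9 with 20 kb, beside 71.3%. With only scores at or above the list median, 10 regions were left, all at antagonists (10) and 0 at activators. Their median width was 153.5 bp and their median score 17.64. The higher median score follows from the limit itself, and so does the 0, since every score at Myc lay below it. At this limit 2 members had 2 start-site regions between them, beside 14.6% of all genes with one. With start windows of 500 bp there were 8 start-site regions. With 100 bp added on either side, 3 regions held CACGTG. With 1 ChIP library for each level at most, unknown depth and no shared regions in the list, neither the spread between cultures nor the size of a change can be given.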
